A study of Mus musculus with 18 samples.

Results

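Transcripts of 9 complement genes were followed across 18 mouse kidneys: the 3 chains of C1q (C1qa, C1qb, C1qc), the central component C3, the classical component C4b, factor B (Cfb), factor I (Cfi), the C3a receptor (C3ar1) and C1 inhibitor (Serping1). They were taken by gene symbol from a count table of 31787 genes. All 9 were among the 21050 genes with enough counts to be tested. Kidneys were obstructed by unilateral ureteral obstruction (UUO, in which the ureter on one side is tied so that its kidney is damaged and becomes fibrotic) or left unobstructed. Total RNA came from a piece of whole kidney, so fewer cells of a type and less RNA per cell cannot be told apart in any value below.

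There were 6 groups of 3 kidneys. The healthy kidneys came from Cre-negative mice with floxed Twist alleles, of the Cdh5-CreERT2;Twist line. Contralateral kidneys, which lie opposite an obstructed one, and wild-type (WT) UUO kidneys each came from 2 Cre-positive mice without floxed alleles (replicates 1 and 2) and 1 Cre-negative mouse with floxed Twist (replicate 3). The conditional knockouts (cKO) were Twist or Snail, floxed and carrying Cdh5-CreERT2, a tamoxifen-inducible Cre driven by an endothelial promoter, and Myc, floxed and carrying GGT-Cre, which acts in tubular cells. All 3 knockout groups were Cre-positive UUO kidneys. Mice of the first 3 groups and of Twist cKO were of mixed C57BL6, 129sv, Balb/c background, and those of Snail and Myc cKO of mixed C57BL6, Balb/c background, so strain and genotype cannot be told apart there. Mice were 12 weeks old at the endpoint, or 11 to 12 weeks in Myc cKO. Sex, used below as a covariate, was read from the counts of Ddx3y and Xist. In Snail and Myc cKO, replicates 1 and 3 had more Ddx3y than Xist, and in each other group only replicate 2 did. The labels do not say which kidneys shared an animal, and p-values measure only the spread between these samples.

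Complement is a cascade of plasma and membrane proteins that marks targets for clearance. C1q recognises a target and starts the classical pathway, in which C4 is cleaved. Factor B belongs to the alternative pathway, which amplifies the deposition of C3, and all routes meet at C3. Factor I cleaves deposited C3b and C4b with the help of cofactors, C1 inhibitor blocks the C1 proteases, and C3ar1 senses the released fragment C3a. The liver makes most plasma complement, while macrophages are a main source of C1q and injured kidney tubules are known to make C3.

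Total counts ran from 52.6 to 91.3 M per library, and mitochondrial ribosomal RNA took 44.6% to 50.3% of the counts in unobstructed kidneys and 19.2% to 34.9% in UUO kidneys. The kidney label fitted the markers: 8 proximal tubule genes summed to 12500 to 13800 CPM in healthy kidney, and fell in WT UUO to 668 to 1580 CPM. CPM here is a count relative to its library total, with totals adjusted by the TMM method of edgeR. Twist1 was lower in Twist cKO UUO (0.307 to 0.596 CPM) than in WT UUO (1.14 to 4.49 CPM; edgeR adjusted p = 0.0172). Snai1 in Snail cKO UUO (1.69 to 2.27 against 2.40 to 3.44 CPM; edgeR adjusted p = 0.487) and Myc in Myc cKO UUO (10.8 to 19.8 against 21.8 to 23.8 CPM; edgeR adjusted p = 0.217) did not pass the test in this whole-kidney RNA.

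The 3 C1q genes are neighbours on the minus strand of chromosome 4 (mm10): C1qb at chr4:136880129-136886187, C1qc at chr4:136889804-136893065 and C1qa at chr4:136895917-136898803. Their levels moved together, with Pearson r of 0.993 for C1qa with C1qb and 0.998 for C1qa with C1qc over 18 libraries, as a description of libraries that share groups. Promoter sequences (RefSeq, GRCm38.p6, from 250 bases before to 50 after the gene start, 5′ to 3′ on the gene's strand) were at hand for 4 of the 9 genes. Those of C1qb and C1qc are shown because the C1q chains moved together, and that of C3 because it had the widest rise. Capitals mark matches to 6 motifs, a list drawn up with the sequences in view and searched on both strands. The PU box was GAGGAA. The C/EBP motif was TTGCNNAA and the GAS motif TTCNNNGAA. The TATA box was TATAAA, and ISRE and NF-kB are given by name.
C1qb promoter, chr4:136886151-136886450, minus strand: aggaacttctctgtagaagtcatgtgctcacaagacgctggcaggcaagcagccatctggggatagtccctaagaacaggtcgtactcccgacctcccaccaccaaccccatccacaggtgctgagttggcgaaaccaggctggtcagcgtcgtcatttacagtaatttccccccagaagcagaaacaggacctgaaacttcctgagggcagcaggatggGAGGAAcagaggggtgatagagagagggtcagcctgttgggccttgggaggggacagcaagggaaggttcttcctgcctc
C1qc promoter, chr4:136892865-136893164, minus strand: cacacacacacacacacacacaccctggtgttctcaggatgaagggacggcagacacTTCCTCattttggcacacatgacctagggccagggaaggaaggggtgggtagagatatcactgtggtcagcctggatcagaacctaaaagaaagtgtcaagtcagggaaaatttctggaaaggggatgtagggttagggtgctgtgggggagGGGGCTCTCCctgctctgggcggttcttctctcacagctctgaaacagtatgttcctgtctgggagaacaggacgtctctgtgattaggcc
C3 promoter, chr17:57228087-57228386, minus strand: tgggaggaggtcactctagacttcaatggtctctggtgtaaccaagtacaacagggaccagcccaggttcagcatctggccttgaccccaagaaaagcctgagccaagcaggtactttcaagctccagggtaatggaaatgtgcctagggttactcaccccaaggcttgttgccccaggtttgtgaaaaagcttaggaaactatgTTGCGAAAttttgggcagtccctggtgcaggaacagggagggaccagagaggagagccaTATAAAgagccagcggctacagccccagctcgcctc
The C1qb window held 1 PU box. In C1qc there were a PU box, read on the opposite strand, and an NF-kB match. The RefSeq start used for the C1qc window lies inside the gene as positioned above, which is from GENCODE. Much of that window, the NF-kB match included, thus lies within C1qc as positioned above. The C3 window held a C/EBP match beginning at -45 and a TATA box beginning at 14, counted from the gene start. The TATA box thus lay after the annotated start. Among all 32851 promoter windows of this length, 28.3% held the PU box, 10.8% the C/EBP motif, 13.6% the TATA box and 8.46% the NF-kB motif, and 8.3% and 3.44% held GAS and ISRE, which none of the 3 printed windows did. The matches are letters in a window, and no motif overlapped another.

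C1q transcripts were scarce in unobstructed kidneys and abundant in obstructed ones. C1qa stood at 8.24, 8.44 and 12.6 CPM in the healthy kidneys and at 119, 149 and 96.4 CPM in WT UUO. The contralateral kidneys held 11.9, 13.5 and 9.30 CPM of C1qa, inside and just above the healthy range. All 3 WT UUO kidneys were several times above every unobstructed one. In the knockout UUO kidneys C1qa was 71.5, 71.8 and 60 CPM with Twist cKO, 59.4, 92.0 and 68.4 CPM with Snail cKO, and 80.5, 64.8 and 59.2 CPM with Myc cKO. Every one of these 9 knockout kidneys lay between the unobstructed range and the lowest WT UUO kidney.

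C1qb and C1qc repeated this order, except that some knockout kidneys reached the WT UUO range. C1qb was 5.55, 6.80 and 11.3 CPM in healthy, 9.00, 9.96 and 6.22 CPM in contralateral and 87.6, 107 and 60.7 CPM in WT UUO kidney. It was 46.7, 45.5 and 33.6 CPM in Twist cKO, 48.5, 73.2 and 55.5 CPM in Snail cKO and 62.4, 48.8 and 52.2 CPM in Myc cKO UUO. WT UUO replicate 3 was the lowest of its group for all 3 chains, and for C1qb it fell inside the Snail and Myc knockout ranges, while the Twist cKO kidneys stayed below it and below every other UUO kidney. C1qc was 5.47, 6.02 and 9.18 CPM in healthy, 8.83, 9.51 and 6.38 CPM in contralateral and 88.6, 106 and 65.6 CPM in WT UUO kidney. In the knockouts it was 47.8, 47.8 and 42.4 CPM for Twist, 46.4, 69.7 and 52.3 CPM for Snail and 59.1, 45.7 and 50.2 CPM for Myc. The Twist and Myc ranges of C1qc lay below WT UUO, and the highest Snail cKO kidney lay inside it.

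**Figure D1:**
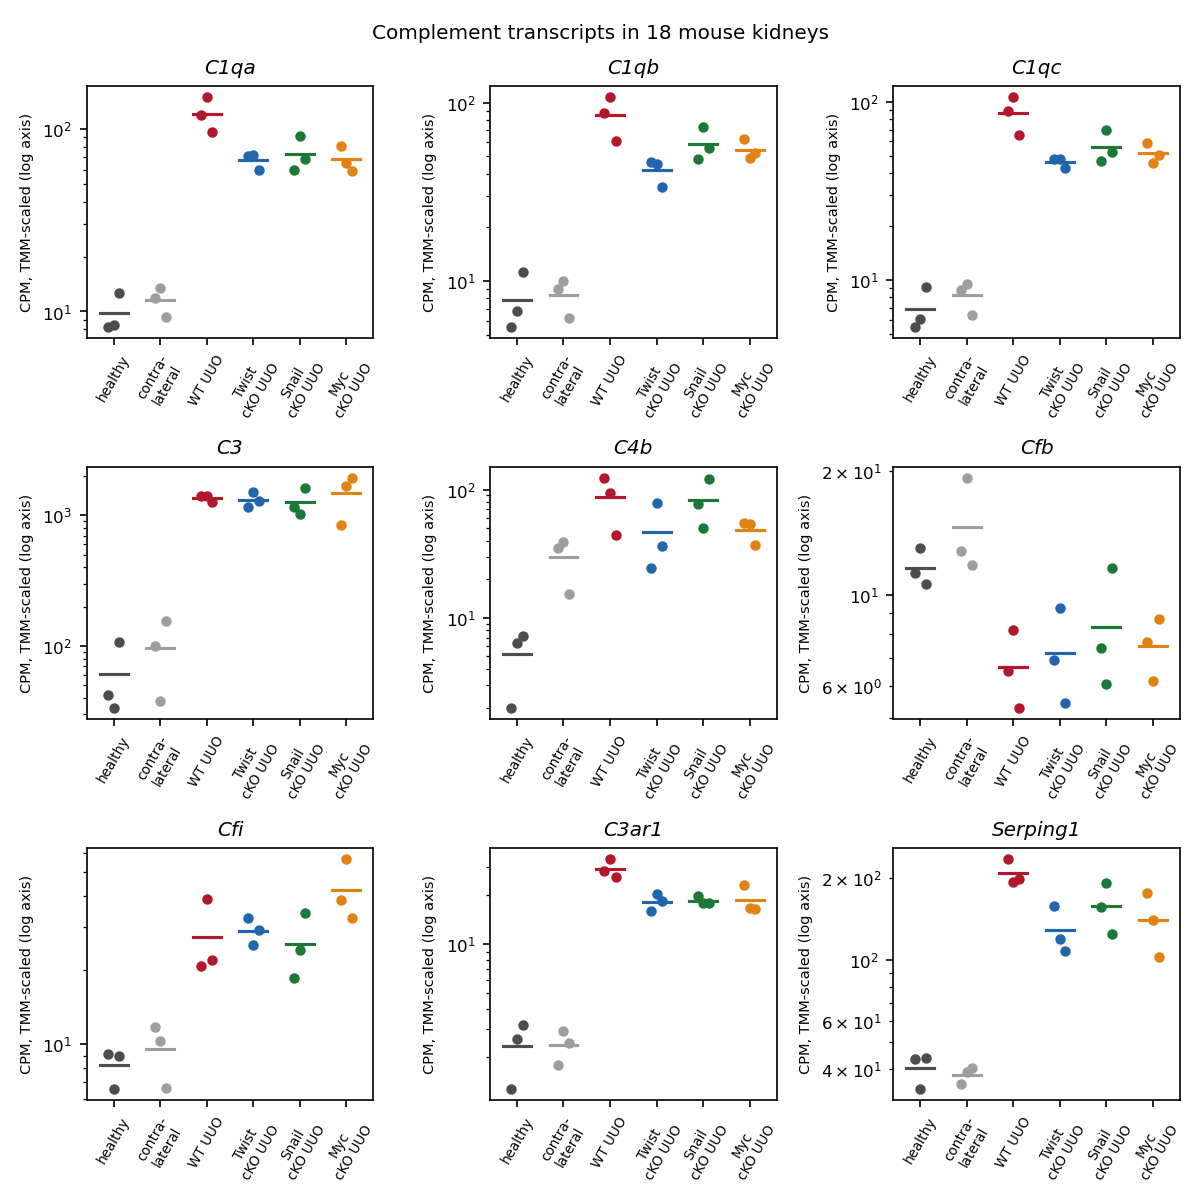
TMM-scaled CPM of the 9 complement genes on log axes, 1 panel per gene; each point is 1 kidney (replicates 1 to 3 from left to right) and each bar the mean of a group of 3. All UUO kidneys lie above all unobstructed ones for C1qa, C1qb, C1qc, C3, Cfi, C3ar1 and Serping1. Cfb is lower by group mean in UUO kidneys, and for both Cfb and C4b some UUO kidneys overlap unobstructed ones.

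C3, at chr17:57203970-57228136 on the minus strand with 41 exons in its longest transcript, was the most abundant of the 9 and had the largest difference between WT UUO and healthy kidney. It stood at 42.1, 33.6 and 107 CPM in healthy and 99.6, 37.7 and 154 CPM in contralateral kidney, a wide spread within each group. WT UUO kidneys held 1410, 1410 and 1260 CPM. Every obstructed kidney exceeded every unobstructed one, and the WT UUO kidneys were close to each other. Twist cKO UUO held 1160, 1500 and 1280 CPM, Snail cKO UUO 1170, 1020 and 1630 CPM, and Myc cKO UUO 849, 1680 and 1920 CPM. The 4 UUO groups overlapped, and Myc cKO held both the lowest and the highest obstructed kidney.

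C4b, at chr17:34728380-34743882 on the minus strand, did not overlap between healthy and contralateral kidney. Its level was 1.99, 6.35 and 7.21 CPM in healthy kidney, against 34.9, 38.7 and 15.4 CPM in contralateral kidney and 122, 94.4 and 44.2 CPM in WT UUO. These 3 groups did not overlap. Between WT UUO and healthy kidney 32.8% of all genes were higher without overlap, and the shares for the other pairs are not given here. C4b was 24.5, 77.9 and 36.4 CPM in Twist cKO, 77.7, 50 and 121 CPM in Snail cKO and 54.4, 53.9 and 37.0 CPM in Myc cKO UUO. 2 Twist cKO kidneys and 1 Myc cKO kidney lay inside the contralateral range, and all 4 UUO groups overlapped each other. C4b shares 23.5% of the 75-base windows of its transcript (1248 of 5305) with its paralogue C4a, so part of the count of either could come from the other, and the C4a share of the summed C4a and C4b counts ran from 0.641% to 52.5% over the libraries.

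Cfb, at chr17:34856374-34862518 on the minus strand, was the 1 member with lower levels after obstruction. Healthy kidneys held 11.3, 13.0 and 10.6 CPM of Cfb and contralateral kidneys 12.8, 19.2 and 11.8 CPM, above the 6.51, 8.21 and 5.30 CPM of WT UUO. Twist cKO UUO was at 6.92, 9.30 and 5.43 CPM, Snail cKO UUO at 7.43, 6.06 and 11.6 CPM and Myc cKO UUO at 7.67, 6.15 and 8.70 CPM. The UUO groups overlapped, and 1 Snail cKO kidney reached the healthy range. In every group, kidneys with more Ddx3y than Xist counts held more Cfb than the others. The Snail cKO kidney at 11.6 CPM was of that kind, and the healthy kidney of that kind held 13.0 CPM. Of the Cfb transcript's 75-base windows, 81.2% also lie in Gm20547, an overlapping gene model on the same strand that has no row in the count table, so reads of the pair are not separated here.

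The regulators rose with obstruction. Cfi, at chr3:129835884-129875332 on the plus strand, was 9.15, 6.60 and 8.98 CPM in healthy and 11.8, 10.3 and 6.63 CPM in contralateral kidney, and 20.8, 38.8 and 22.1 CPM in WT UUO. It stood at 32.5, 25.4 and 29.0 CPM with Twist cKO, at 18.6, 24.1 and 34.0 CPM with Snail cKO and at 38.4, 56.3 and 32.7 CPM with Myc cKO. The Myc cKO kidneys were above all Twist cKO kidneys, as was the case for 10.2% of all genes, and overlapped WT UUO. Serping1, at chr2:84765387-84775444 on the minus strand, was 43.5, 33.8 and 43.8 CPM in healthy, 35.1, 38.8 and 40.3 CPM in contralateral and 234, 194 and 198 CPM in WT UUO kidney. Twist cKO UUO held 158, 120 and 108 CPM of Serping1, Snail cKO UUO 157, 192 and 125 CPM and Myc cKO UUO 177, 140 and 103 CPM. All 9 knockout kidneys lay below the WT UUO range, with Snail cKO replicate 2 close to it.

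C3ar1, at chr6:122847138-122856161 on the minus strand, had the lowest count of any member in a single library, 63, and at most 2666. It was 1.28, 2.60 and 3.19 CPM in healthy, 1.79, 2.93 and 2.44 CPM in contralateral and 28.1, 33.3 and 25.8 CPM in WT UUO kidney. Knockout UUO kidneys held 15.9, 20.4 and 18.4 CPM for Twist, 19.7, 18 and 18 CPM for Snail, and 23.2, 16.8 and 16.4 CPM for Myc. The knockout groups overlapped each other and were all below WT UUO and above the unobstructed kidneys.

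By group mean, C1qa stood highest in WT UUO at 122 ± 26.6 CPM (SD, n = 3), followed by Snail, Myc and Twist cKO UUO at 73.3 ± 16.8, 68.2 ± 11 and 67.8 ± 6.77 CPM, which overlapped each other. Contralateral and healthy kidney came last, at 11.6 ± 2.14 and 9.75 ± 2.45 CPM, also overlapping. C3 was highest in Myc cKO UUO at 1480 ± 561 CPM, but its 4 UUO groups overlapped down to Snail cKO at 1270 ± 318 CPM. For Cfi the top group was Myc cKO UUO at 42.5 ± 12.4 CPM, and for Cfb it was contralateral kidney at 14.6 ± 4.03 CPM.

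Per kilobase of transcript the order of the genes differed between healthy and obstructed kidney. In healthy kidney the mean level was highest for Serping1 at 22.8 CPM per kb, followed by C3 at 11.9 and C1qa at 9.38 CPM per kb, and lowest for C3ar1 at 0.548 CPM per kb. In WT UUO C3 led with 265 CPM per kb, Serping1 and C1qa followed with 118 and 117 CPM per kb, and Cfb was lowest with 2.43 CPM per kb. The members' median coefficient of variation between replicates was above that of all genes tested in 5 of the 6 groups. It was 29% in healthy, 24% in contralateral and 21.9% in WT UUO kidney, against 18.7%, 16.1% and 14% over all genes. In Snail cKO UUO it was 23% against 13.2%, in Myc cKO UUO 20.4% against 18.7%, and in Twist cKO UUO 13.2% against 13.5%.

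The comparison of WT UUO with healthy kidney asked what obstruction does to these transcripts. With edgeR's quasi-likelihood test (called at a Benjamini-Hochberg adjusted p under 0.05 over all genes), 8 of the 9 members were higher and 1 was lower, where 56.3% of all genes were called, 29.2% higher and 27.1% lower. The groups did not overlap in any of the 9, 8 higher and 1 lower, as was the case for 32.8% of all genes on the higher side and 29.7% on the lower. The members' median log2 fold change was 3.61, against 0.05 over all genes tested. C1qa rose by 3.64 ± 0.23 (log2, SE; edgeR adjusted p = 3.39e-08), C1qb by 3.43 ± 0.29 and C1qc by 3.65 ± 0.24. C3 rose by 4.48 ± 0.54 (edgeR adjusted p = 6.12e-06) and C4b by 4.06 ± 0.60 (edgeR adjusted p = 4.51e-05). All healthy mice were Cre-negative, and with the presence of Cre as a covariate the C4b rise was 3.1 (edgeR adjusted p = 0.000453). Without healthy replicate 3, the healthy kidney with the most C3, the C3 rise was 5.17. The rise was 3.61 ± 0.27 for C3ar1, 2.37 ± 0.21 for Serping1 and 1.72 ± 0.30 for Cfi. Cfb fell by 0.80 ± 0.26 (edgeR adjusted p = 0.0176), a call lost without healthy replicate 2 (adjusted p = 0.0606), WT UUO replicate 1 (0.0511) or WT UUO replicate 3 (0.0787). With sex as a covariate Cfb was at -0.82 (edgeR adjusted p = 0.000413).

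Contralateral kidney differed from healthy kidney in 1 of the 9 members, where 2.26% of all genes were called, 1.96% higher. C4b rose by 2.51 ± 0.57 (log2, SE; edgeR adjusted p = 0.035). The other 8 had log2 differences from -0.08 for Serping1 to 0.67 for C3, whose 95% interval ran from -0.33 to 1.68. The C4b call was lost with the presence of Cre as a covariate, at 1.55 (adjusted p = 0.24), and also without healthy replicate 1 (0.1), healthy replicate 2 (0.121), contralateral replicate 1 (0.0881) or contralateral replicate 2 (0.1). Within groups, Cre varied only in contralateral and WT UUO kidneys. There the Cre-negative replicate 3 was also the only mouse with floxed Twist. Fits with Cre as a covariate, here and elsewhere, therefore cannot tell Cre from the floxed allele.

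Against the contralateral kidneys, the same obstruction gave 8 members higher and Cfb lower in WT UUO, where 53.6% of all genes were called, 27.5% higher and 26% lower. C1qa, C1qb and C1qc rose by 3.39, 3.35 and 3.40 (log2), C3 by 3.8 ± 0.52, C3ar1 by 3.60, Serping1 by 2.46 and Cfi by 1.51. Cfb fell by 1.13 ± 0.26 (edgeR adjusted p = 0.0021). C4b rose by 1.55 ± 0.54 (edgeR adjusted p = 0.0252), and lost the call without contralateral replicate 3 (0.0988), WT UUO replicate 1 (0.1) or WT UUO replicate 2 (0.0585), while with Cre as a covariate it was 1.54 (0.0126).

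The knockout kidneys, set against the same contralateral kidneys, gave a like order, and the comparisons share those 3 controls. Twist cKO UUO had 7 members higher and Cfb at -1.02 (log2), where 42.9% of all genes were called, 21.5% higher and 21.4% lower. Snail cKO UUO had 8 higher and Cfb at -0.81, with 46.4% of genes called, 23.7% higher and 22.8% lower, and Myc cKO UUO 7 higher and Cfb at -0.96, with 44.5% called, 22% higher and 22.5% lower. C4b was the member not called in Twist cKO (0.64, 95% interval -0.49 to 1.78) and Myc cKO (0.71, -0.43 to 1.84), and passed in Snail cKO (1.48 ± 0.54, edgeR adjusted p = 0.0353). That call was lost without contralateral replicate 1 (0.0605) or 3 (0.128) or Snail cKO replicate 1 (0.0575) or 3 (0.141), and with Cre (0.0695) or sex (0.0525) as a covariate, and C4b did not pass between Snail and either other knockout. The Cfb call in Snail cKO (0.0202) was lost without contralateral replicate 2 (0.119) or Snail cKO replicate 1 (0.076) or 2 (0.0999), and that in Myc cKO (0.00811) without contralateral replicate 2 (0.0525). C3 rose by 3.76, 3.71 and 3.93 (log2) with Twist, Snail and Myc cKO.

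Whether losing a transcription factor changed these transcripts in obstructed kidney was asked against WT UUO, the same 3 kidneys for each knockout. In Twist cKO UUO the 3 C1q chains fell, 3 of 9 members, where 5.28% of all genes were called and 2.31% were lower. C1qa fell by 0.84 ± 0.21 (log2, SE; edgeR adjusted p = 0.0368), C1qb by 1.02 ± 0.27 (0.0422) and C1qc by 0.92 ± 0.22 (0.0314). Serping1 was at -0.70 ± 0.20 (0.0533) and C3ar1 at -0.67 ± 0.24 (0.116). In these 5 genes every Twist cKO kidney was below every WT UUO kidney, as in 17% of all genes. C3 was at -0.05, with a 95% interval from -1.04 to 0.95, C4b at -0.91, Cfb at 0.11 and Cfi at 0.09. None of the 3 calls held without WT UUO replicate 1 or 2, or any 1 of the Twist cKO kidneys, although C1qb stayed between -1.21 and -0.81 whichever 1 kidney was left out. Without WT UUO replicate 1 the number of all genes called dropped from 1111 to 13.

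In Snail cKO UUO no member passed edgeR's test, where 0.299% of all genes were called; 3 members had an unadjusted p under 0.05, and DESeq2 called 1, C1qa (-0.73, DESeq2 adjusted p = 0.0345). C1qa was at -0.73 ± 0.21 (edgeR adjusted p = 0.134), C1qc at -0.63, C3ar1 at -0.65 and C1qb at -0.53. In 3 genes, C1qa, C3ar1 and Serping1, every Snail cKO kidney was below every WT UUO kidney, as in 12.2% of all genes. The 95% intervals were wide for C3 (-1.09 to 0.90) and C4b (-1.19 to 1.06).

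Myc cKO UUO had 2 of 9 members lower, where 12.2% of all genes were called and 6.91% were lower. C1qa fell by 0.83 ± 0.21 (log2, SE; edgeR adjusted p = 0.0216) and C1qc by 0.75 ± 0.22 (0.0382), while C1qb was at -0.65 ± 0.27 (0.128). Serping1 was at -0.58 (0.0703) and C3ar1 at -0.63 (0.104). 4 of the 9, C1qa, C1qc, C3ar1 and Serping1, lay below WT UUO without overlap, as did 16.6% of all genes. Cfi had the only difference above 0.5 upward, 0.64 ± 0.29 (0.165). Neither call held without WT UUO replicate 1 or 2, or Myc cKO replicate 2 or 3. The members' median was -0.70 with Twist, -0.40 with Snail and -0.63 with Myc cKO, against -0.01, 0 and 0 over all genes.

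**Figure D2:**
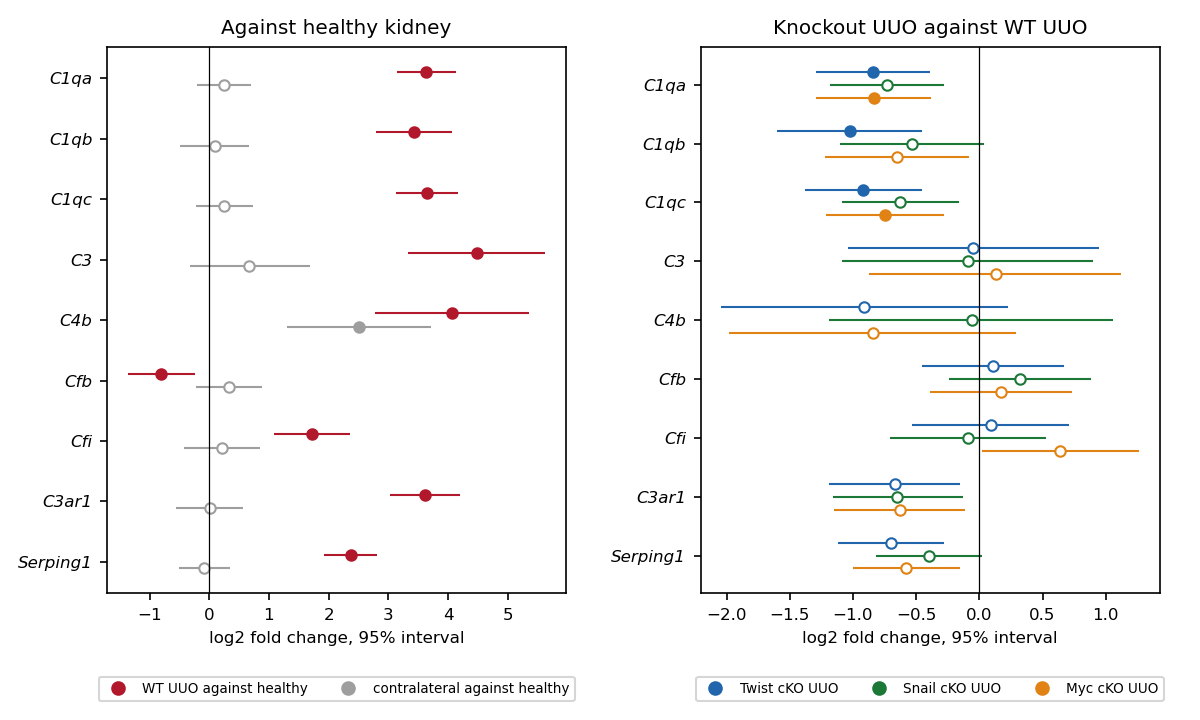
Log2 fold changes of the 9 complement genes with 95% intervals, against healthy kidney on the left and for the 3 knockouts against WT UUO on the right; filled points passed edgeR's adjusted p under 0.05. All 9 genes are filled for WT UUO on the left, and on the right only the C1q chains are filled (3 with Twist cKO, 2 with Myc cKO).

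No member differed between the knockouts by edgeR's test: 0 of 9 passed for Snail against Twist cKO, where 0.171% of all genes were called, for Myc against Twist cKO (2.99%) and for Myc against Snail cKO (2.45%). The smallest unadjusted p was that of Cfi, higher in Myc than in Snail cKO by 0.73, with a 95% interval from 0.11 to 1.35 (edgeR adjusted p = 0.207). The widest difference was in C4b, higher in Snail than in Twist cKO by 0.84 (-0.29 to 1.98). C1qa differed by 0.11 (-0.34 to 0.56) between Snail and Twist cKO and by 0.01 (-0.44 to 0.46) between Myc and Twist cKO. C1qb did not overlap between Twist cKO and either other knockout, at 0.49 (-0.08 to 1.06) for Snail and 0.38 (-0.19 to 0.95) for Myc against Twist cKO, where 7.54% and 10.2% of all genes were higher without overlap. Cfi did not overlap between Myc and Twist cKO either, at 0.55 (-0.07 to 1.17), with an edgeR adjusted p of 0.354.

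Markers of macrophages, a main source of C1q, moved in the same direction. Of 15 macrophage genes, 14 were higher and 1 lower in WT UUO than in healthy kidney, where 29.2% of all genes were higher and 27.1% lower. Their median log2 change was 3.58, and their summed level rose from 284 to 545 CPM up to 1420 to 2070 CPM. It was 1080 to 1360 CPM in Twist cKO, 972 to 1450 CPM in Snail cKO and 1240 to 1520 CPM in Myc cKO UUO, with medians of -0.87, -0.56 and -0.47 against WT UUO. No library had a marker of this list at 0. The mean log2 level of the C1q chains minus that of the macrophage list was 0.42, 0.46 and 0.25 in healthy kidney, 0.99, 1.11 and 0.92 in WT UUO, 0.78, 0.86 and 0.73 in Twist cKO, 0.85, 1.16 and 0.93 in Snail cKO, and 0.77, 0.56 and 0.91 in Myc cKO. In the contralateral kidneys it was 0.65, 0.90 and 0.07. Obstructed kidneys ran from 0.56 to 1.16 and unobstructed ones from 0.07 to 0.90, which overlap, and the part of macrophage RNA in the C1q results was not tested.

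Other cell types moved with obstruction too. All 8 proximal tubule markers were lower in WT UUO than in healthy kidney (median -3.92), as were 27.1% of all genes, the direction of Cfb. Against WT UUO 6 of 8 were higher with Twist, 1 with Snail and 6 with Myc cKO, where 2.97%, 0.162% and 5.31% of all genes were higher. All 8 fibroblast markers were higher in WT UUO (median 4.38), as were 29.2% of all genes, the direction of every member but Cfb. Against WT UUO 2 of the 8 were lower in Twist cKO, none in Snail cKO and 4 in Myc cKO, where 2.31%, 0.138% and 6.91% of all genes were lower. The fibroblast sum was 3780 to 7450 CPM in WT UUO and lay below that range in every knockout kidney, at 1880 to 2190 CPM with Twist, 2590 to 3680 CPM with Snail and 791 to 3120 CPM with Myc cKO. Of 6 hepatocyte genes 1 was higher and 3 lower, where 29.2% of all genes were higher and 27.1% lower. Their sum was 37.7 to 134 CPM in healthy and 10.6 to 26.6 CPM in WT UUO kidney, and each healthy library had 1 or 2 of the 6 at 0. The 7 injured tubule genes, Spp1 among them, summed to 776 to 1280 CPM in healthy and 697 to 1360 CPM in contralateral kidney. Their sum was 8730 to 10200 CPM in WT UUO, 8050 to 10000 CPM with Twist, 8120 to 9430 CPM with Snail and 8690 to 12100 CPM with Myc cKO. These UUO ranges overlapped, as did those of C3. The part of these cell types in the members' differences was not tested.

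C3 in unobstructed kidney varied along with fat-cell transcripts. The 3 unobstructed kidneys with the most C3 (107, 99.6 and 154 CPM) held 63.4, 90.6 and 108 CPM of Cfd, which encodes factor D, an alternative pathway protease made largely by fat cells, and the other 3 held 0.549, 1.11 and 13.1 CPM. In healthy and in contralateral kidney, replicate 2, with more Ddx3y than Xist counts, held the least C3 (33.6 and 37.7 CPM). The part of sex and of fat in this spread was not tested. In WT UUO, replicate 3 had 1260 CPM of C3 with Cfd at 0.183 CPM. The 5 adipocyte genes summed to 0.325 to 33.9 CPM in healthy, 7.41 to 60.7 CPM in contralateral and 0.0611 to 29.3 CPM in WT UUO kidney, and to at most 0.487 CPM in Twist cKO, where replicate 1 had 4 of the 5 at 0. With an adipocyte score as a covariate, chosen after the data were seen, the C3 rise in WT UUO against healthy was 4.51, and the 3 C1q calls in Twist cKO were lost, at -0.76 for C1qa (edgeR adjusted p = 0.0992), -0.85 for C1qb (0.119) and -0.78 for C1qc (0.0891).

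**Figure D3:**
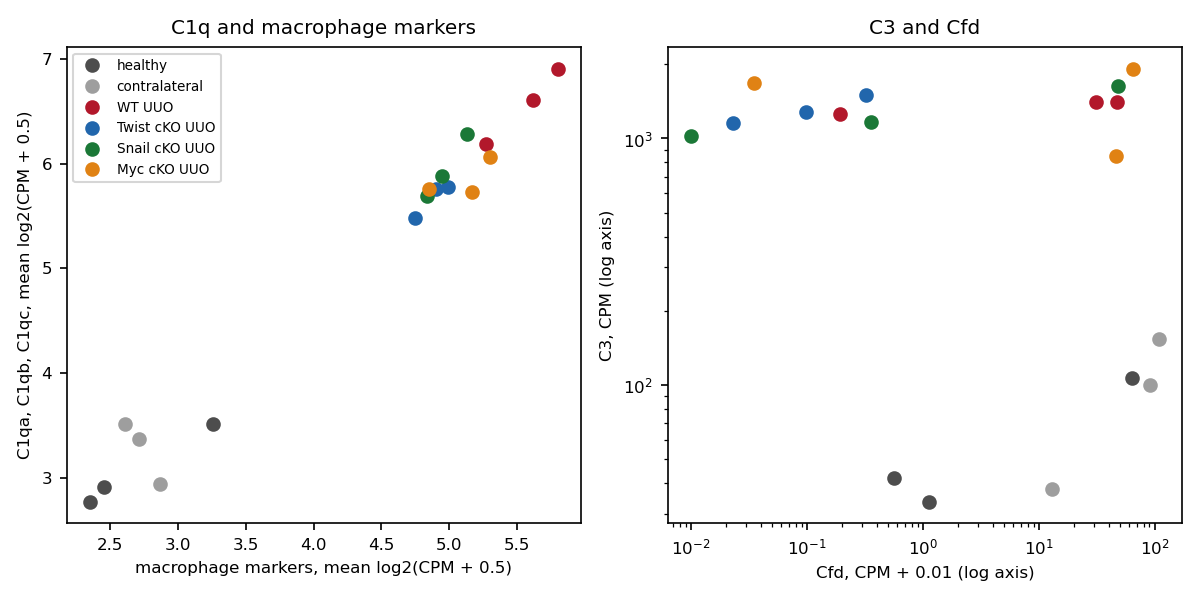
Each point is 1 kidney, coloured by group: on the left the mean log2 level of the 3 C1q chains against that of 15 macrophage markers, on the right C3 against Cfd, both in CPM on log axes. UUO kidneys are high on both axes at the left, while at the right C3 is 849 CPM or more in UUO kidneys whether Cfd is high or near 0.

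The rest of the cascade was measured with 50 other complement genes, of which 43 had enough counts. In WT UUO against healthy kidney 22 of them were higher and 7 lower, with a median of 1.48, where 29.2% of all genes were higher and 27.1% lower with a median of 0.05. The 6 with the smallest p were Cd93 (1.74), Clu (3.29), Colec12 (2.14), Masp1 (2.57), C8g (-2.14) and C1ra (1.79). Cd93 is a receptor once linked to C1q, and Clu, the fluid-phase inhibitor clusterin, went from 129 to 1260 CPM. Colec12 is a collectin and Masp1 belongs to the lectin route. C8g is a chain of the membrane attack complex and C1ra a C1 protease. In role groups, to be read against the same shares, 3 of 4 classical proteases and 6 of 8 receptors were higher and none lower. Of 7 terminal components 3 rose and 3 fell, C8a from 46.1 to 0.738 CPM. Of 8 soluble regulators 4 rose and 2 fell. In contralateral against healthy kidney edgeR called none of the 43, and 7 had an unadjusted p under 0.05.

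**Figure D4:**
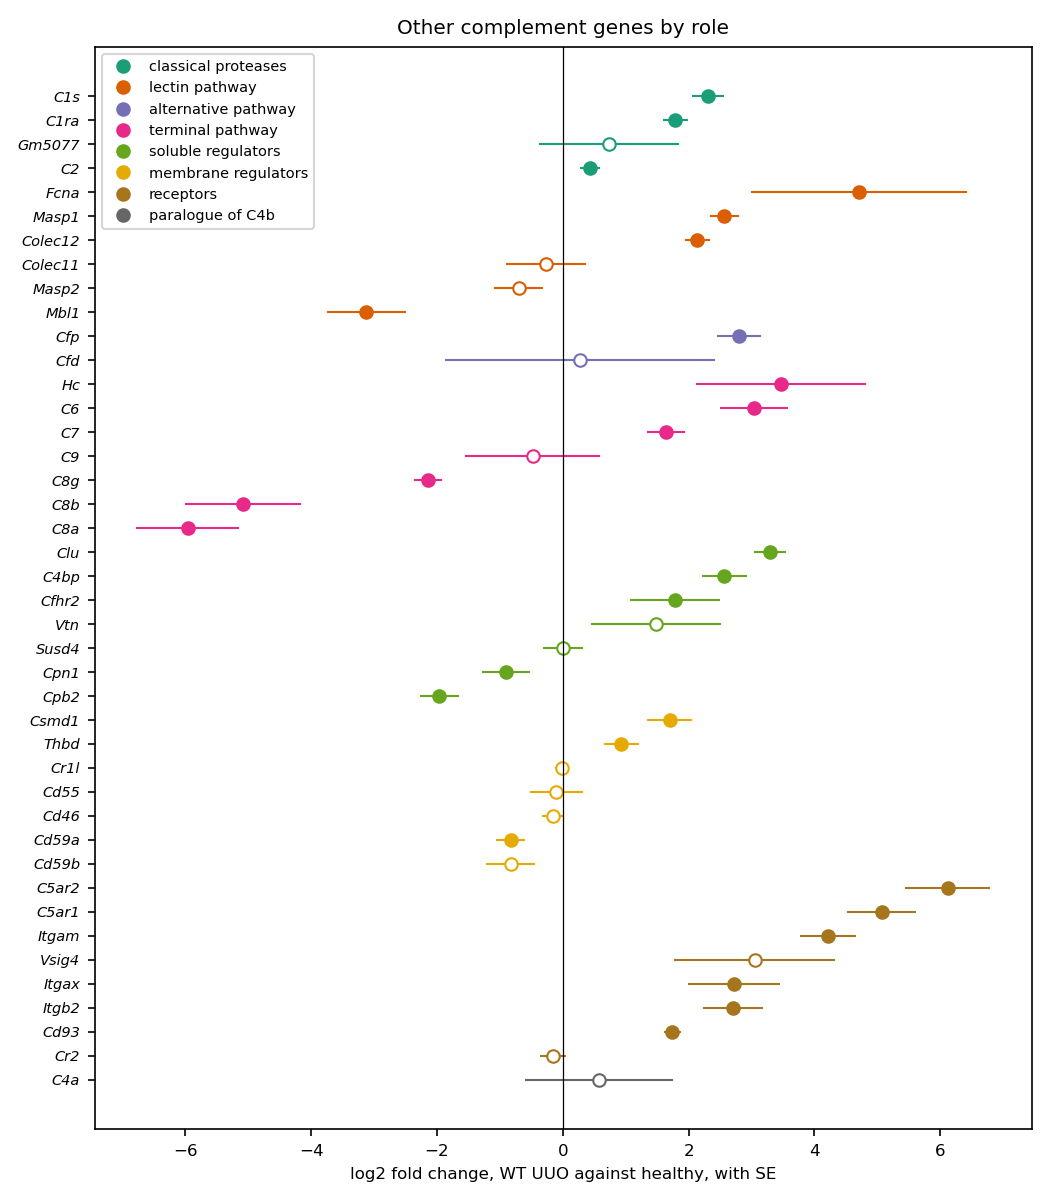
Log2 fold change with SE of other complement genes in WT UUO against healthy kidney, coloured by role; filled points passed edgeR's adjusted p under 0.05. Receptors and classical proteases lie mostly to the right of 0, while terminal components lie on both sides, from C8a at -5.96 to Hc at 3.47.

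Against WT UUO, 2 of these 43 passed with the loss of Twist, 2 with that of Snail and 3 with that of Myc, where 5.28%, 0.299% and 12.2% of all genes were called. Cd93 fell in all 3 against WT UUO, by 0.92 with Twist, 0.80 with Snail and 0.78 with Myc cKO, from 119 CPM in WT UUO. The Snail call was lost without Snail cKO replicate 3 (adjusted p = 0.0548). Cd93 is also made by endothelial cells, and of 7 endothelial markers 2, Pecam1 and Cdh5, were lower in Twist and in Myc cKO than in WT UUO and none passed in Snail cKO. The endothelial sum was 359 to 534 CPM in WT UUO, 304 to 348 CPM with Twist, 337 to 360 CPM with Snail and 327 to 376 CPM with Myc cKO, and its part in the Cd93 differences was not tested. The collectin Mbl1 rose by 2.24 with Twist and 2.32 with Myc cKO, from 0.169 CPM, and leaving out WT UUO replicate 1 ended both calls (1.76 and 1.86; adjusted p = 0.16 and 0.0756). They were also lost without WT UUO replicate 3, any 1 Twist cKO kidney (Twist) or Myc cKO replicate 3 (Myc), and without WT UUO replicate 2 the rises were 3.23 and 3.32. With Snail cKO C5ar2, a C5a receptor, fell by 3.42 (edgeR adjusted p = 0.0122; 0.0902 without Snail cKO replicate 3), and with Myc cKO Cpb2, the carboxypeptidase that inactivates anaphylatoxins, rose by 1.17 (0.0178), a call lost without WT UUO replicate 1 (0.053) or 2 (0.0604) or Myc cKO replicate 2 (0.0514).

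The genes whose level was most like that of each member over the 18 libraries (Pearson r of log2 CPM, among 12086 genes) were as follows. Fcgr3, an Fc receptor, stood first for all 3 C1q chains, at 0.99 for C1qa and C1qb and 0.992 for C1qc. C3ar1 was nearest to Apobec1 (0.989) and the Fc receptor Fcgr1 (0.988), Serping1 to Ecscr and Ctsk (0.99 each) and C3 to Gpr64 (0.981) and Spp1 (0.98), which encodes osteopontin. The highest values for C4b (Csf3r, 0.926) and Cfi (H2-DMb1, 0.93) were lower, and Cfb was nearest to Cpox (0.94). The gap between obstructed and unobstructed kidneys enters every one of these values.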

How the data were processed

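Whole transcriptome libraries (stranded kit, 2 reads of 75 bases, NextSeq500) were made from TRIzol RNA of 1 piece in 8 of each kidney, per the labels' protocols. The authors deposited raw counts per gene symbol; their tools were bcl2fastq 1.8.4, HTSeq and DESeq2 with the build mm10, per the submitters' processing notes. The strand setting, the aligner and the annotation: not given in the sources used here. Of the columns, 6 matched no sample and were not used. In R 4.3.3, counts were filtered (filterByExpr), TMM-scaled and tested in 1 robust quasi-likelihood fit of edgeR 4.0.16 over 18 libraries in 6 groups (12 residual degrees of freedom, two-sided, Benjamini-Hochberg over 21050 genes). The code was run on counts simulated from the spread that edgeR itself estimated. Such a run cannot probe the effects of single libraries, Cre or sex. DESeq2 1.42.0, limma 3.58.1 (voom), other scalings, filters, covariates and left-out libraries were the alternatives. Members, lists and tests were chosen with earlier results of these data known. The text names the 9 members, up to 6 other complement genes per comparison by smallest p, and the nearest genes by correlation; C8a, Hc, Cfd and C4a were named after their values were seen. 1 complement gene is not reported here. Replicates were numbered in accession order. Gene positions are from GENCODE M21. Replicates of a group all differed beyond counting noise.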

Additional observations from a re-analysis of the deposited data

Results flagged for a closer look

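Between 2 knockouts, 3 of the 43 complement genes outside the 9 differed in level in obstructed kidney, which is what drew attention to them. Myc cKO UUO was set directly against Snail cKO UUO (edgeR), where 2.45% of all genes were called. No knockout group held an unobstructed kidney, so a response to obstruction was not measured. In Myc against Snail cKO UUO, C7, a terminal component, was higher by 1.20 on the log2 scale (42.6 against 18.5 CPM, adjusted p = 0.0329), Cd59a, which protects cells from the membrane attack complex, by 1.25 (17.9 against 7.54 CPM, adjusted p = 0.0111), and C5ar2 by 3.04 (2.00 against 0.242 CPM, adjusted p = 0.0102). The calls over all genes moved from 515 to between 57 (without Snail cKO replicate 1) and 691 when 1 library was left out. The C7 call was lost without Snail cKO replicate 1 (adjusted p = 0.14) or 3 (0.132) or Myc cKO replicate 2 (0.102) or 3 (0.103), and that of C5ar2 without Snail cKO replicate 3 (0.0599), while Cd59a passed with any 1 library left out. In a fit of the 2 groups alone none of the 3 passed (adjusted p = 0.169 for C7, 0.15 for Cd59a and 0.11 for C5ar2). The strains of both groups carry the same label.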

How the results depend on the processing

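No paired analysis was possible because the labels carry no replicate numbers shared across groups. The 9 calls in WT UUO against healthy kidney became 8 or 9 when 1 library was left out. In contralateral against healthy kidney the 1 call (0 to 1 when a library was left out) became 0 with no filter, by voom, with Cre or the adipocyte score as covariate, and in a fit of the 2 groups alone. Against WT UUO the Twist count of 3 (0 to 3 when a library was left out) became 5 by voom, 4 by DESeq2, with upper-quartile scaling, the filter of 1 CPM or sex and in the 2 groups alone, 2 with no filter, and 0 with the adipocyte score or without WT UUO replicate 1 and Myc cKO replicate 3 together; the Snail count of 0 became 1 by DESeq2; and the Myc count of 2 (0 to 3) became 3 by DESeq2, by voom and with Cre, 1 with no filter, 0 in the 2 groups alone and 0 without that pair of libraries. Sign changes were all in differences that did not pass. In contralateral against healthy kidney, C3ar1 was -0.04 with upper-quartile scaling, 0 with the filter of 1 CPM, with sex and in 2 groups, -0.06 with Cre and -0.08 with the adipocyte score (-0.28 to 0.30 leaving out a library); with Cre, C1qa was -0.08, C1qb -0.37, C1qc -0.13 and Cfi -0.21; C1qb was -0.04 with the adipocyte score (-0.11 to 0.44). For Twist, Cre gave C3 0.10, Cfb -0.02 and Cfi -0.09, the adipocyte score C3 0.36, and the pair left out Cfi -0.07 (C3 -0.15 to 0.04, Cfb -0.11 to 0.30 and Cfi -0.06 to 0.45 leaving out a library). For Snail, C3 was 0.06 with Cre, 0.03 with sex and 0.04 with the adipocyte score, and C4b 0.06 with that score and 0.26 without the pair (C3 -0.30 to 0.05, C4b -0.44 to 0.27, Cfi -0.35 to 0.26). For Myc, C3 was -0.08 without the pair (-0.10 to 0.40). The cause was not tested. Over all genes, calls moved from 1111 to between 13 and 2421 for Twist, from 63 to between 11 and 773 for Snail, from 2572 to between 5 and 3764 for Myc against WT UUO, and from 476 to between 3 and 1299 in contralateral against healthy kidney. For Myc they moved from 630 to between 15 and 1582 against Twist and from 515 to between 16 and 1393 against Snail, and for Snail against Twist from 36 to between 14 and 152. Upper-quartile scaling moved the median of all genes from 0.05 to 0.16 in WT UUO against healthy kidney, and the share of calls that were higher from 86.8% to 66.3% in contralateral against healthy, from 50.1%, 51% and 49.5% to 61.5%, 61.2% and 64.1% for Twist, Snail and Myc against contralateral, and from 14.8% to 33.1% and 21.4% to 40.9% for Myc against Twist and Snail.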

Other observations

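C4a, the paralogue of C4b known as sex-limited protein, was 0.224, 7.03 and 0.217 CPM in healthy, 2.08, 7.50 and 1.51 CPM in contralateral, 3.96, 4.54 and 2.52 CPM in WT UUO and 0.483, 3.96 and 0.760 CPM in Twist cKO UUO. In each of these groups replicate 2, the only library with more Ddx3y than Xist counts, was the highest. Snail cKO UUO held 5.57, 3.87 and 7.77 CPM, with replicates 1 and 3 of that kind, and Myc cKO UUO 0.902, 3.13 and 0.239 CPM, where replicates 1 and 3 were of that kind and lower. No test was made.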
